A study of Mus musculus with 12 samples.

Results

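The collagen genes were taken as every gene whose symbol has the form Col, a number, a and a number, and whose probe sets name that gene alone in the array's annotation. The rule gave 42 genes of the 18193 named on the array, read by 82 probe sets, 15 genes by a single probe set and 27 by several. Each gene is described by its probe set of highest mean intensity. By their proteins, 11 genes were placed in a fibrillar class, 10 in a basement membrane class and 21 in a class of all others.

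RNA of whole newborn bladders, collected at postnatal day 1 from FVB/N mice, was hybridised to 12 one-colour Affymetrix arrays. In 3 arrays the mice carried SMGA/EGFP, a green fluorescent protein driven by the smooth muscle gamma actin promoter, and in 3 they carried SMAA/EYFP, a yellow fluorescent protein driven by the smooth muscle alpha actin promoter. The other 6 arrays were wild type. All groups share the FVB/N background, all samples are labelled male, no sample was pooled, and FVB/N dams were mated to transgenic sires. Litter is not given, so it is not known whether genotype can be told apart from litter or sire. The design asks what transgene expression does to the bladder's expression profile, here read for collagen. The labels do not say whether the arrays of a group came from separate litters.

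Collagens are proteins of the extracellular matrix in which 3 alpha chains wind into a triple helix, built on short repeats that start with glycine. Fibrillar collagens assemble into the tension-bearing fibrils of the bladder's lamina propria and muscle, type IV chains form the sheet-like network of basement membranes under urothelium and around smooth muscle cells and vessels, and type VI chains form beaded filaments between them. In the bladder wall these proteins are known for setting stiffness and stretch. In whole tissue, fewer cells of a type and less RNA per cell cannot be told apart.

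The arrays also fell into 2 runs of database record numbers of 6 arrays each. The first held SMGA/EGFP 1 to 3 with wild type 1 to 3, the second SMAA/EYFP 1 to 3 with wild type 4 to 6, so each reporter could be set against the 3 wild-type arrays of its own run, while the reporters could not be compared within one run. One array went against its label: wild type 4 had an intensity of 29604 for Xist, an RNA made from the inactive X of females, against 80.1 to 250.4 on the other 11 arrays, and 26.7, 28.0 and 48.6 for the Y-linked Eif2s3y, Kdm5d and Uty. Results of the comparisons that use all wild-type arrays are therefore also given without it. Median intensity ran from 229 to 306 over the arrays. The tissue label fitted the markers, since all 6 markers of each of smooth muscle, fibroblasts, urothelium, mesothelium and endothelium lay above the filter used for testing. Values below are log2(intensity + 16) after quantile normalization unless stated otherwise, and tests are limma's, two-sided, with Benjamini-Hochberg adjustment over the 22518 probe sets whose mean lay above the median of 8.02.

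Of the 42 genes, 32 passed that filter, 9 fibrillar, 9 basement membrane and 14 other. The fibrillar genes tested were Col1a1, Col1a2, Col3a1, Col5a1, Col5a2, Col5a3, Col11a1, Col24a1 and Col27a1. The basement membrane genes were Col4a1, Col4a2, Col4a4, Col4a5, Col4a6, Col7a1, Col15a1, Col17a1 and Col18a1. The others were Col6a1, Col6a2, Col6a3, Col8a1, Col8a2, Col9a1, Col12a1, Col13a1, Col14a1, Col16a1, Col19a1, Col23a1, Col25a1 and Col26a1. The 10 genes below the filter were Col2a1, Col4a3, Col6a4, Col6a5, Col9a2, Col9a3, Col10a1, Col11a2, Col20a1 and Col22a1. Col22a1 lay 0.12 below the filter and Col9a1 0.17 above it. Among these 10 are chains known from cartilage, Col2a1, Col9a2, Col9a3, Col10a1 and Col11a2. Their wild-type means lay between 5.92 ± 1.29 for Col9a2 and 7.16 ± 0.84 for Col2a1 (SD, n = 6). These means join 2 runs that differed. Wild type of the first run minus that of the second was 1.44 for Col2a1, 1.80 for Col9a2 and 2.01 for Col9a3. It was -0.17 for Col10a1 and -1.27 for Col11a2. For Col9a3 every array of the first run lay above every array of the second. Being below the filter, these differences were not tested. The other 5 had wild-type means from 5.62 ± 0.76 for Col6a5 to 7.85 ± 0.66 for Col22a1. None of the 6 cartilage markers passed the filter either, with means of 5.94 to 7.31, and none of the 3 bone markers with a named probe set did.

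The chains described first are those of types I, III and V, which share fibrils, type IV and type VI. The 250 bases before the RefSeq transcription start of Col1a2, Col3a1, Col5a1, Col6a1 and Col6a2 are shown because the results on paired chains turn on these genes. They are written 5′ to 3′ on the gene's own strand from RefSeq's GRCm38.p6 table. Capitals mark matches to 3 promoter motifs, each searched on both strands, so that a capital stretch can be the reverse complement. The GC box known for binding Sp1 was searched by the letters GGGCGG. The motif known for binding the nuclear factor NF-Y, called the CCAAT box, was searched by the letters in its name. For the core promoter element that the TATA-binding protein is known to contact, the letters searched were TATAAA. The windows are Col1a2 at chr6:4505368-4505617 (+), Col3a1 at chr1:45311288-45311537 (+), Col5a1 at chr2:27886175-27886424 (+), Col6a1 at chr10:76726045-76726294 (-) and Col6a2 at chr10:76623631-76623880 (-), the last before the upstream one of its 2 starts.
Col1a2: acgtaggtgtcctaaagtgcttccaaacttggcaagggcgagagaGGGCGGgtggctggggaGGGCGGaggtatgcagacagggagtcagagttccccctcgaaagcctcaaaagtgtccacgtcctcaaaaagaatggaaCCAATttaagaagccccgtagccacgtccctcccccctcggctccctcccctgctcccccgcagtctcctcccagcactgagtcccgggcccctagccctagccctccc
Col3a1: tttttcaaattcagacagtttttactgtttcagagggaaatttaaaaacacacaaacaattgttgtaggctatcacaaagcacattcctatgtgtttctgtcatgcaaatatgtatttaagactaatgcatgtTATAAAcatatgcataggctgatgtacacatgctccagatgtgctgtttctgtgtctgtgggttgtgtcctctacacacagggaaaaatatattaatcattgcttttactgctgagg
Col5a1: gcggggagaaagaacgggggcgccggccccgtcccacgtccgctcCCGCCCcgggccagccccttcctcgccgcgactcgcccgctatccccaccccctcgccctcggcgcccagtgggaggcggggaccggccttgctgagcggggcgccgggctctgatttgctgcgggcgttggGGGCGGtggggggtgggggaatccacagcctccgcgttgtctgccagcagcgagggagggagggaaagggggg
Col6a1: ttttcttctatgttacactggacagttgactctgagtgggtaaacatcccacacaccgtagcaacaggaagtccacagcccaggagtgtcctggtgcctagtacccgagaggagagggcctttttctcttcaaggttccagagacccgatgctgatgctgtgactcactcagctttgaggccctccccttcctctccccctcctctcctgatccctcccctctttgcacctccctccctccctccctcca
Col6a2: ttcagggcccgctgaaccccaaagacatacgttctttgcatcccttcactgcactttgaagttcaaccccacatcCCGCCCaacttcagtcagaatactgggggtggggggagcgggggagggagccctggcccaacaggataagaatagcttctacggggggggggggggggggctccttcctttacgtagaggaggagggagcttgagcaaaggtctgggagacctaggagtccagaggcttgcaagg
Col1a2 carries 2 GC boxes and a CCAAT box, Col5a1 2 GC boxes, Col6a2 a GC box in this window, and Col6a1 none of the 3 motifs. Col3a1 carries the letters of a TATA box 117 bases before its start. The window before the downstream start of Col6a2, not shown, has GC boxes 67, 15 and 11 bases before that start.

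A promoter was listed for 33 of the 42 genes, 36 promoters in all. A GC box was present in 58.3% of the collagen promoters and in 32.7% of all 32851 promoters, a CCAAT box in 36.1% and 33.8%, and a TATA box in 13.9% and 12.4%. By class, the GC box was found in 6 of 8 fibrillar, 5 of 10 basement membrane and 10 of 18 other promoters, and the CCAAT box in 3, 6 and 4 of them. A match is a description of letters and not of a bound site. Col4a1 and Col4a2, the chains of the most widespread type IV molecule, are transcribed in opposite directions from chromosome 8, and are known for sharing a promoter region. Their RefSeq starts overlap by 22 bases, chr8:11312805-11312826, shown on the + strand because the results below set the levels of these 2 genes side by side.
Col4a1 and Col4a2: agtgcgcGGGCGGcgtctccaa
The capitals in it are a GC box, downstream of both starts. In the 250 bases before each start, Col4a1 has a CCAAT box alone, and Col4a2 has 2 GC boxes and a CCAAT box. Col4a6 and Col4a5 are likewise transcribed away from each other on the X chromosome, with starts 1343 bases apart. Col6a1 and Col6a2 stand on one strand with starts 102640 bases apart, counted from the downstream start of Col6a2 to the start of Col6a1.

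Type I collagen, the main fibril former, is made of alpha 1 and alpha 2 chains. Col1a1 measured 14.91, 14.55 and 14.59 in SMGA/EGFP, 14.68, 14.67 and 14.54 in SMAA/EYFP, and 14.57 at the lowest, 14.84 at the median and 14.90 at the highest in wild type. SMGA/EGFP 1 was above every wild-type array, its 2 companions lay within or below the wild-type range, and the groups overlapped. The difference from wild type was -0.10 ± 0.09 (SE; adjusted p = 0.809, limma) in SMGA/EGFP and -0.16 ± 0.09 (adjusted p = 0.991, limma) in SMAA/EYFP. Col1a2 measured 15.92, 15.88 and 15.87 in SMGA/EGFP, 16.05, 15.81 and 15.88 in SMAA/EYFP, and 15.84, 15.89 and 15.93 at the lowest, median and highest wild-type array. The SMGA/EGFP arrays sat within the wild-type range, and SMAA/EYFP held both the highest and the lowest of the 12. The 95% interval of the fold against wild type ran from 0.933 to 1.07 in SMGA/EGFP and from 0.949 to 1.09 in SMAA/EYFP.

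Col3a1 encodes the single chain of type III collagen, which forms thin fibrils with type I. Its levels were 16.07, 16.07 and 16.05 in SMGA/EGFP, 15.99, 16.01 and 16.07 in SMAA/EYFP, and 16.01, 16.05 and 16.10 over wild type. The groups overlapped, with differences of 0.02 ± 0.03 and -0.03 ± 0.03 from wild type. Col1a2 and Col3a1 lay at the top of the array's scale, where quantile normalization sets a value by its rank: Col3a1 ranked 1 to 6 and Col1a2 3 to 32 of all probe sets on the arrays. In the deposited values, intensities of Col3a1 ran from 60707 to 78002 and those of Col1a2 from 52077 to 72623, and their SD over the 12 arrays was 0.10 and 0.14 in log2, against 0.03 and 0.06 after normalization. The narrow spread of these probe sets is therefore no measure of how steady the genes were. The other tested probe set of Col3a1 had an SD of 0.17. It measured 15.23, 15.21 and 15.07 in SMGA/EGFP, 14.75, 15.36 and 15.06 in SMAA/EYFP, and 15.02 to 15.35 in wild type, with differences of -0.06 and -0.18. SMAA/EYFP held both its lowest and its highest array.

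Type V chains copolymerise with type I and are known for starting fibrils and limiting their width. Col5a1 measured 14.95, 14.74 and 14.69 in SMGA/EGFP, 14.92, 14.72 and 14.73 in SMAA/EYFP, and 14.79, 15.01 and 15.05 at the lowest, median and highest wild-type array. In each reporter group 2 of 3 arrays lay below every wild-type array, and the remaining array lay inside the wild-type range. The difference was -0.16 ± 0.08 in both (adjusted p = 0.726 and 0.991, limma). Col5a2 measured 15.20, 15.03 and 15.05 in SMGA/EGFP, 15.19, 15.15 and 15.02 in SMAA/EYFP, and 15.12, 15.23 and 15.36 over wild type. Here SMGA/EGFP 2 and 3 and SMAA/EYFP 3 lay below the wild-type range, and the differences were -0.13 ± 0.06 and -0.11 ± 0.06 (adjusted p = 0.718 and 0.991, limma). Against wild type of their own run, the SMGA/EGFP differences were -0.08 for Col5a1 and -0.10 for Col5a2, and the SMAA/EYFP differences -0.24 and -0.14. Col5a3 encodes the third type V chain, and it was at 10.25, 9.51 and 9.20 in SMGA/EGFP, 9.90, 9.89 and 9.42 in SMAA/EYFP and 9.65 to 10.49 with a median of 10.01 in wild type. Its arrays overlapped in both comparisons, at -0.42 ± 0.24 and -0.34 ± 0.24.

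Type IV chains make the basement membrane network. Col4a1 measured 15.69, 15.78 and 15.56 in SMGA/EGFP, 15.66, 15.64 and 15.56 in SMAA/EYFP, and 15.59, 15.69 and 15.79 at the lowest, median and highest wild-type array. Col4a2 measured 14.99, 14.91 and 14.58 in SMGA/EGFP, 14.90, 14.71 and 14.63 in SMAA/EYFP, and 14.56, 14.83 and 14.95 over wild type. SMGA/EGFP 3 and SMAA/EYFP 3 were the lowest arrays of their groups for both genes. The groups overlapped for both. On these probe sets the difference from wild type of largest size was -0.07 ± 0.06, for Col4a1 in SMAA/EYFP. The 95% intervals of the fold ran from 0.915 to 1.08 for Col4a1 in SMGA/EGFP and from 0.825 to 1.13 for Col4a2 in SMAA/EYFP. The other tested probe set of Col4a1 gave differences of 0.24 in SMGA/EGFP and 0.03 in SMAA/EYFP. Its r with the one used here was 0.35 over the 12 arrays.

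The type VI chains surround cells and link them to the fibrils. Col6a1 measured 15.31, 15.08 and 15.16 in SMGA/EGFP, 15.28, 15.13 and 15.13 in SMAA/EYFP, and 15.10, 15.24 and 15.31 over wild type. Col6a2 measured 14.89, 14.62 and 14.62 in SMGA/EGFP, 14.85, 14.66 and 14.76 in SMAA/EYFP, and 14.69, 14.83 and 14.88 over wild type. For both genes the first array of each reporter group was its highest, and the groups overlapped. Col6a3, the longest of these chains, measured 15.36, 14.90 and 15.28 in SMGA/EGFP, 15.16, 15.08 and 15.17 in SMAA/EYFP, and 15.21, 15.25 and 15.29 over wild type. All 3 SMAA/EYFP arrays lay below all 6 wild-type arrays, at a difference of -0.11 ± 0.08 (adjusted p = 0.991, limma). SMGA/EGFP held the highest and the lowest of the 12 arrays, with a difference of -0.07 ± 0.08.

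**Figure D1:**
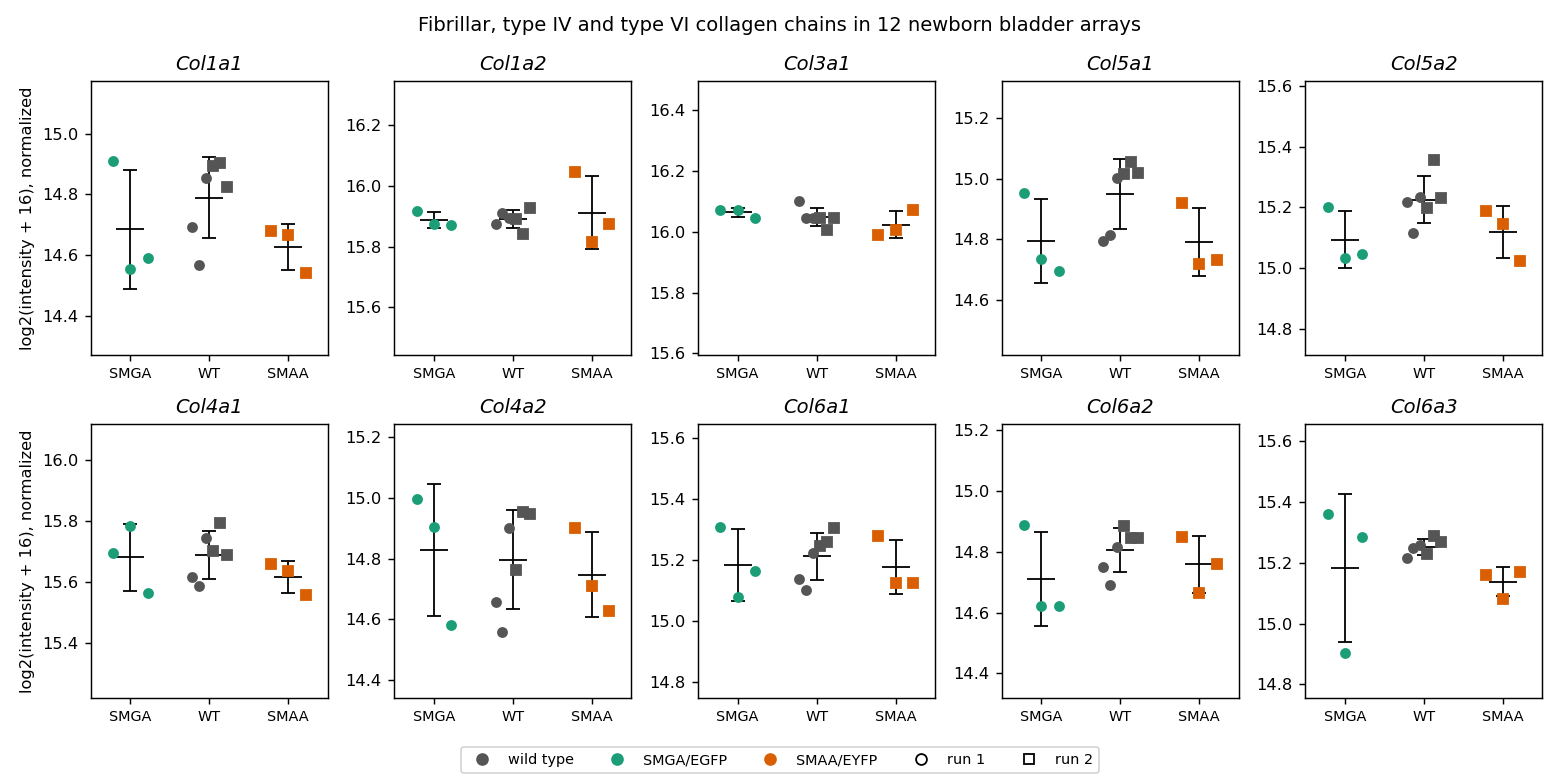
Normalized log2 intensity of 10 collagen genes on 12 arrays by group (SMGA, SMGA/EGFP, n = 3; WT, wild type, n = 6; SMAA, SMAA/EYFP, n = 3), each panel spanning the same range of log2 units. Points are arrays, circles of the first and squares of the second run of record numbers, lines and bars are mean and SD. The groups overlap for every gene except Col6a3, where the 3 SMAA/EYFP arrays lie below the wild-type arrays.

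No collagen gene passed as changed in SMGA/EGFP against wild type. This does not exclude changes, since some 95% intervals of the fold were wide, such as 1.23 to 6.20 for Col26a1 and 0.521 to 1.07 for Col5a3. Of the 32 genes 0 passed the adjusted threshold of 0.05 (limma), against 14 of all probe sets, or 0.0622%. At an unadjusted p below 0.05 the members numbered 3, Col26a1, Col23a1 and Col5a2, or 9.375%, against 6.92% of all probe sets. No member had its 3 SMGA/EGFP arrays wholly above or below wild type, where 2.72% of all probe sets did. The median difference of the 32 genes was -0.01 and that of all probe sets tested was -0.01, with 14 genes above 0 and 18 below. By class the medians were 0.00 for fibrillar, 0.03 for basement membrane and -0.06 for the other genes. The sign of the members' median depended on scaling, at 0.03 on the values as deposited and -0.06 with each array centred on its median, and 17 of 32 genes lay above the median of all probe sets in each case.

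No collagen gene passed as changed in SMAA/EYFP against wild type either, with 0 of 32 past the threshold (limma) and 0% of all probe sets. At an unadjusted p below 0.05 there were 2, Col4a4 and Col24a1, or 6.25%, against 4.81% of all. Most members lay slightly lower: 27 of 32 differences were below 0, with a median of -0.12 against 0.00 for all probe sets. The median was -0.16 over the 9 fibrillar genes, of which 8 lay below 0, -0.05 over the basement membrane genes, of which 7 did, and -0.18 over the 14 others, of which 12 did. Col6a3 was the single member without overlap, where 2.99% of all probe sets had none and 1.27% were lower in SMAA/EYFP. With values as deposited or with each array centred on its median, the members' median was -0.11 and -0.07, and 27 of 32 genes lay below the median of all probe sets in both.

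Set against wild type 4 to 6 alone, the members' median in SMAA/EYFP was -0.12, with 24 of 32 differences below 0. Wild type 4, the array that went against its label, is among these, and the comparison within the run was not made without it. The median was -0.24 over the fibrillar genes, -0.001 over the basement membrane genes and -0.11 over the others. Here Col1a1, Col4a1, Col5a1, Col5a2, Col6a3, Col15a1, Col16a1 and Col25a1 had all 3 SMAA/EYFP arrays below all 3 wild-type arrays and Col17a1, a transmembrane collagen of hemidesmosomes, had them above. These 9 of 32 genes stand beside 11.9% of all probe sets without overlap in that comparison, 6.31% with SMAA/EYFP lower and 5.61% with it higher. None of the 9 passed the adjusted threshold (limma), as did 0% of all probe sets. The score of 6 fibroblast markers, their mean deviation over the arrays, was -0.09 ± 0.13 (SD, n = 3) in SMAA/EYFP, 0.15 ± 0.12 in wild type of the second run and 0.02 ± 0.14 in wild type of the first. Smooth muscle markers scored -0.02 ± 0.11, 0.10 ± 0.09 and -0.06 ± 0.11 in the same order. Urothelium markers scored 0.19 ± 0.14, -0.17 ± 0.27 and -0.08 ± 0.15, and all 6 were above wild type in SMAA/EYFP, by 0.11 for Upk1b to 0.45 for Upk2. Endothelium markers scored -0.11 ± 0.18, 0.17 ± 0.12 and 0.07 ± 0.18, and all 6 were below wild type, from -0.32 for Kdr to -0.08 for Tie1. The urothelium and endothelium scores in SMGA/EGFP were 0.05 ± 0.23 and -0.13 ± 0.27. There too all 6 urothelium markers were above wild type, by 0.05 for Upk1b to 0.30 for Upk2. All 6 endothelium markers were below it, from -0.52 for Tie1 to -0.09 for Pecam1. The part of these cells in the collagen differences was not tested. In SMGA/EGFP against wild type of the first run 0 of 32 genes had no overlap, beside 6.44% of all probe sets.

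Col4a4 and Col24a1 had the smallest p in SMAA/EYFP. Col4a4, a chain of the type IV network known from kidney and other specialised basement membranes, measured 9.60, 10.20 and 9.71 in SMAA/EYFP, 9.32, 9.06 and 9.65 in SMGA/EGFP, and 9.12, 9.33 and 9.66 over wild type. SMAA/EYFP 2 was the highest of the 12 arrays and SMAA/EYFP 1 lay inside the wild-type range. The difference was 0.48 ± 0.18 (adjusted p = 0.991, limma), 0.52 on the other tested probe set of the gene and 0.40 within the run. Without SMAA/EYFP 2 it was 0.30. Its network partner Col4a3 was below the filter. Col24a1, a fibrillar collagen known from bone and cornea, measured 7.43, 8.73 and 7.59 in SMAA/EYFP, 9.30, 8.87 and 8.86 in SMGA/EGFP, and 7.95, 8.84 and 9.26 over wild type. SMAA/EYFP 1 and 3 lay below all wild-type arrays and SMAA/EYFP 2 among them. The difference was -0.82 ± 0.31 (adjusted p = 0.991, limma), or -0.87 within the run.

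**Figure D2:**
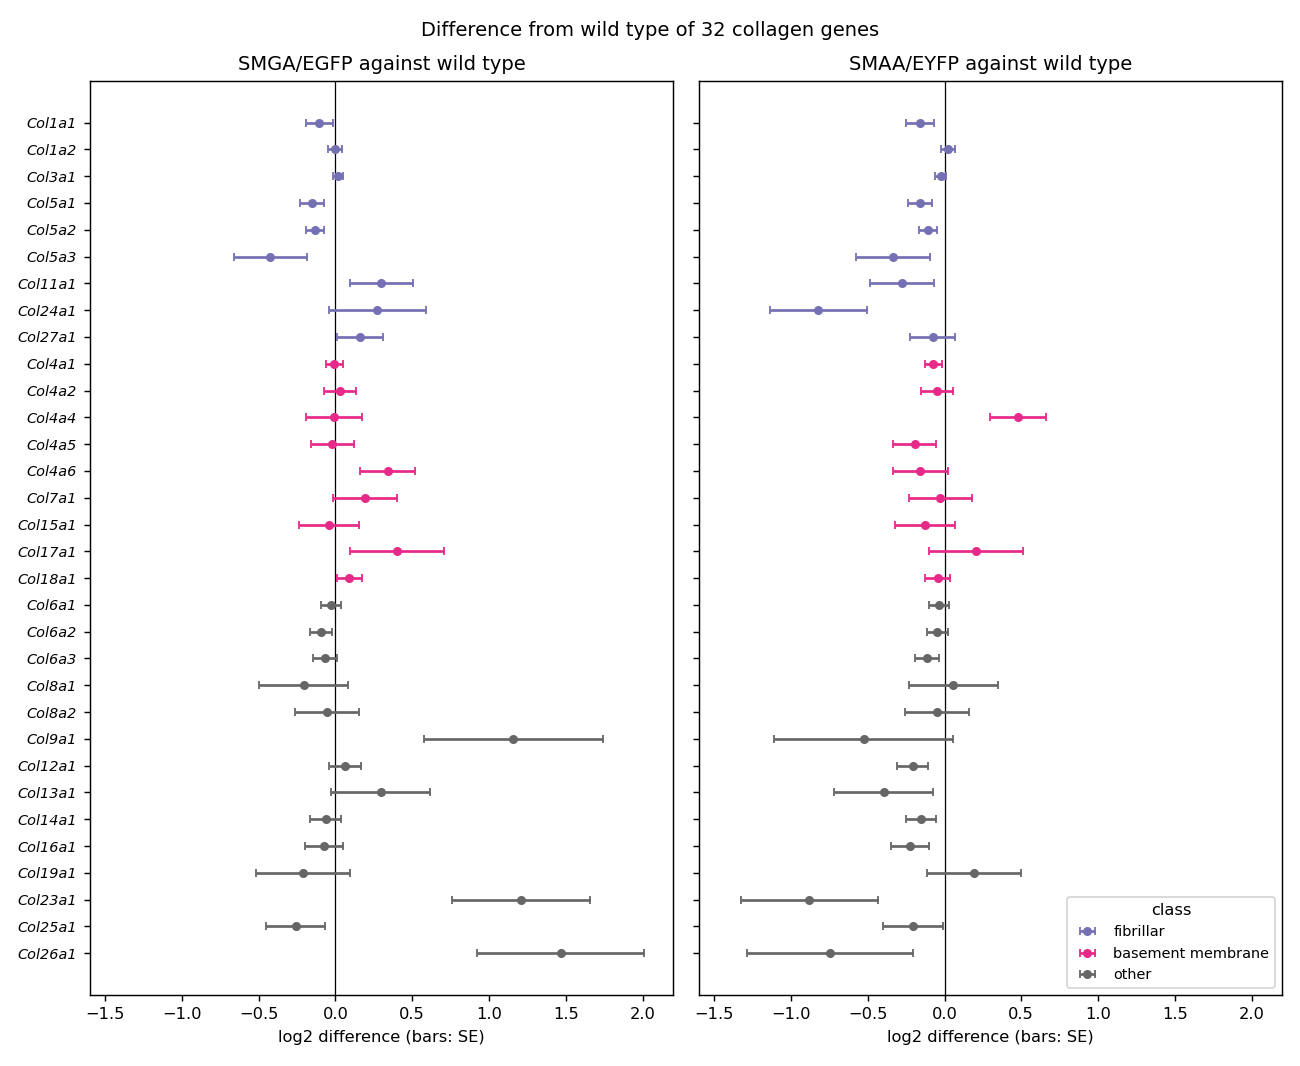
Difference from wild type in log2 units of the 32 collagen genes tested, with the standard error as bars, for SMGA/EGFP (left) and SMAA/EYFP (right), coloured by class. In SMGA/EGFP, 14 genes lie above 0 and 18 below, and in SMAA/EYFP 5 lie above and 27 below, while none passed the adjusted threshold in either.

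In SMGA/EGFP the 3 widest differences from wild type were those of Col26a1, Col23a1 and Col9a1, outside the fibrillar class. In SMAA/EYFP Col23a1 came first and the fibrillar Col24a1 second, and within the run Col24a1 was the widest of the 32. Col23a1 and Col13a1 encode transmembrane collagens with a single pass through the membrane, Col26a1 a secreted short collagen with an EMI domain, and Col9a1 a chain of a collagen that lies on the surface of fibrils. Col23a1 measured 10.93, 9.84 and 11.02 in SMGA/EGFP, 8.72, 8.57 and 8.24 in SMAA/EYFP, 10.69, 10.40 and 8.77 in wild type 1 to 3, and 8.69, 9.13 and 8.64 in wild type 4 to 6. Of the 6 arrays of the first run 5 were above all 6 of the second, wild type included, and wild type 3 was not. Col26a1 showed a like order, at 10.16, 9.67 and 10.26 in SMGA/EGFP, 7.55, 7.87 and 8.03 in SMAA/EYFP, 10.38, 9.84 and 7.86 in wild type 1 to 3, and 7.76, 7.76 and 7.78 in wild type 4 to 6. Col9a1 was at 8.99, 8.76 and 9.82 in SMGA/EGFP, 7.10, 7.19 and 8.23 in SMAA/EYFP, 9.69, 9.36 and 7.28 in wild type 1 to 3, and 7.15, 6.84 and 7.88 in wild type 4 to 6. Again wild type 3 sat with the second run. For Col26a1 and Col9a1 only SMAA/EYFP 3 of the second run lay above the filter of 8.02, and wild type 3 lay below it. Both genes thus passed the filter through the 5 arrays of the first run in which they were high.

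In SMGA/EGFP against all wild type, the difference was 1.47 ± 0.54 for Col26a1 (adjusted p = 0.709, limma), 1.21 ± 0.45 for Col23a1 (0.709) and 1.16 ± 0.58 for Col9a1 (0.724). Against wild type of the same run these came to 0.67, 0.64 and 0.41, and without wild type 4 the first pair came to 1.31 and 1.07. In SMAA/EYFP the differences were -0.75 ± 0.54, -0.88 ± 0.45 and -0.53 ± 0.58, and within the run 0.05, -0.31 and 0.22. The other tested probe set of Col23a1 gave 1.31 and -0.40 for the 2 reporters, while that of Col9a1 gave 0.22 and 0.04 and correlated with the one used here at r = 0.30 over the 12 arrays.

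Between the reporters again 0 of 32 genes passed (limma), with 18 of all probe sets past, or 0.0799%. Col23a1 lay higher in SMGA/EGFP by 2.09 ± 0.52 (adjusted p = 0.312, limma) and Col26a1 by 2.21 ± 0.63 (adjusted p = 0.362, limma). With only the 6 arrays compared in the fit Col26a1 passed, at an adjusted p of 0.0127 (limma), as 1 of 24 probe sets past the threshold in that fit, or 0.107%. Col24a1 followed at 1.09 ± 0.36 and Col9a1 at 1.68 ± 0.67. Unadjusted, 8 members, or 25%, had p below 0.05, against 9.31% of all probe sets, and 5 of 32 (Col9a1, Col18a1, Col23a1, Col24a1 and Col26a1) had no overlap, all higher in SMGA/EGFP, against 14.5% of all probe sets in either direction and 6.48% in that one. This comparison crosses the runs, so run and reporter cannot be told apart in it. Col9a1 and Col26a1 were tested in it only because they passed the filter through arrays of the first run.

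The other genes of small p between the reporters had smaller differences. Col11a1, a minor fibrillar chain known from cartilage that also joins type V, measured 11.49, 10.78 and 11.32 in SMGA/EGFP, 10.49, 10.94 and 10.43 in SMAA/EYFP, and 10.61, 10.76 and 11.45 over wild type. Col4a6, a type IV chain known from smooth muscle basement membranes, measured 11.96, 11.40 and 11.87 in SMGA/EGFP, 11.44, 11.10 and 11.19 in SMAA/EYFP, and 10.99, 11.43 and 11.81 over wild type. Col12a1, a collagen that sits on type I fibrils, measured 14.30, 14.06 and 14.02 in SMGA/EGFP, 13.69, 14.09 and 13.78 in SMAA/EYFP, and 13.92, 14.01 and 14.27 over wild type. In all 3 genes the reporter groups overlapped. The differences between the reporters were 0.58 ± 0.24, 0.50 ± 0.21 and 0.27 ± 0.12 (adjusted p = 0.498, 0.507 and 0.516, limma). Col4a4 lay lower in SMGA/EGFP, at -0.49 ± 0.21. The members' median was 0.08 between the reporters, with 23 of 32 genes above 0, against -0.02 for all probe sets. With each array centred on its median the members' median was -0.06 and that of all probe sets -0.12, and 23 genes lay above the latter.

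Between the wild-type arrays of the 2 runs 0 of 32 genes passed (limma), as did 0% of all probe sets, and 5 members had an unadjusted p below 0.05, where 8.15% of all probe sets did. The first run lay higher by 1.60 ± 0.47 for Col26a1, 1.49 ± 0.55 for Col9a1, 1.14 ± 0.43 for Col23a1 and 0.72 ± 0.33 for Col13a1. Col13a1, known from neuromuscular junctions, measured 9.85, 9.07 and 8.52 in wild type 1 to 3, 8.68, 8.40 and 8.21 in wild type 4 to 6, 9.58, 8.58 and 9.08 in SMGA/EGFP and 8.71, 8.16 and 8.30 in SMAA/EYFP. Wild type 3 lay below wild type 4. Col25a1, a transmembrane collagen known for its part in muscle innervation, went the other way, at 12.24, 12.08 and 12.52 in wild type 1 to 3 and 12.90, 12.98 and 12.81 in wild type 4 to 6, with 12.26, 12.55 and 12.18 in SMGA/EGFP and 12.68, 12.16 and 12.31 in SMAA/EYFP. Wild type 4 to 6 were its 3 highest arrays, at a difference between the wild-type runs of -0.62 ± 0.16 (adjusted p = 0.441, limma). Without wild type 3, Col9a1, Col23a1, Col25a1 and Col26a1 passed, at 2.23, 1.72, -0.74 and 2.34 (adjusted p = 0.0234, 0.0209, 0.0385 and 0.00317, limma), while in that fit 430 of all probe sets passed, or 1.91%. The array left out is the one that sat with the second run for Col9a1, Col23a1 and Col26a1. Col9a1 and Col26a1 lay below the filter in wild type 4 to 6, and passed it only through the arrays where they were high. In all, 7 members had no overlap between the wild-type runs, against 13.5% of all probe sets. The first run was higher for Col18a1, Col26a1 and Col27a1, where 6.07% of all probe sets were, and lower for Col5a1, Col6a1, Col6a2 and Col25a1, where 7.46% were.

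Markers of neurons and of skeletal muscle also stood high in some of the arrays in which these genes did. The score of the 4 neuron markers tested, of a list of 5, was 0.76, 1.11 and 0.33 in SMGA/EGFP, 1.60, 0.73 and -0.41 in wild type 1 to 3, -0.96, -0.60 and 0.80 in SMAA/EYFP, and -1.05, -1.20 and -1.12 in wild type 4 to 6. It was above 0 in the same 5 arrays of the first run in which Col23a1 and Col26a1 were high. It was below 0 in wild type 3 and above 0 in SMAA/EYFP 3. On SMAA/EYFP 3 Col23a1 was the lowest of all arrays, at 8.24. Col26a1, at 8.03, and Col9a1, at 8.23, were there the highest of the second run. For Prph, a neuronal filament, and Chrna3, a ganglionic receptor subunit, SMGA/EGFP minus wild type was 1.57 and 1.18. The 5 skeletal muscle markers tested, of 6, scored 0.72, 0.50 and -0.32 in SMGA/EGFP, 0.00, 1.08 and -0.22 in wild type 1 to 3, -0.67, 0.09 and -0.54 in SMAA/EYFP, and -0.27, -0.10 and -0.27 in wild type 4 to 6. This score was high in SMGA/EGFP 1 and 2 and wild type 2, and near or below 0 over the second run. Of these markers Myh3, the embryonic myosin heavy chain, differed most, at 2.08 in SMGA/EGFP and -1.28 in SMAA/EYFP from wild type, and the other 4 tested lay between -0.37 and -0.02 in both. Below the filter, Myog, a muscle regulatory factor, was at 1.35 and -0.76. The cartilage marker Cnmd, also below it, was at 1.59 and -1.02, while the rest of the cartilage list went both ways. These others ran from -0.57 for Matn3 to 0.55 for Comp in SMGA/EGFP. In SMAA/EYFP they ran from -0.59 for Hapln1 to 0.30 for Comp. Mesothelium markers scored -1.33 ± 0.16 (SD, n = 3) in SMGA/EGFP, 0.81 ± 0.41 in SMAA/EYFP and 0.26 ± 0.40 (SD, n = 6) in wild type. The part of these cells in the collagen values was not tested.

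**Figure D3:**
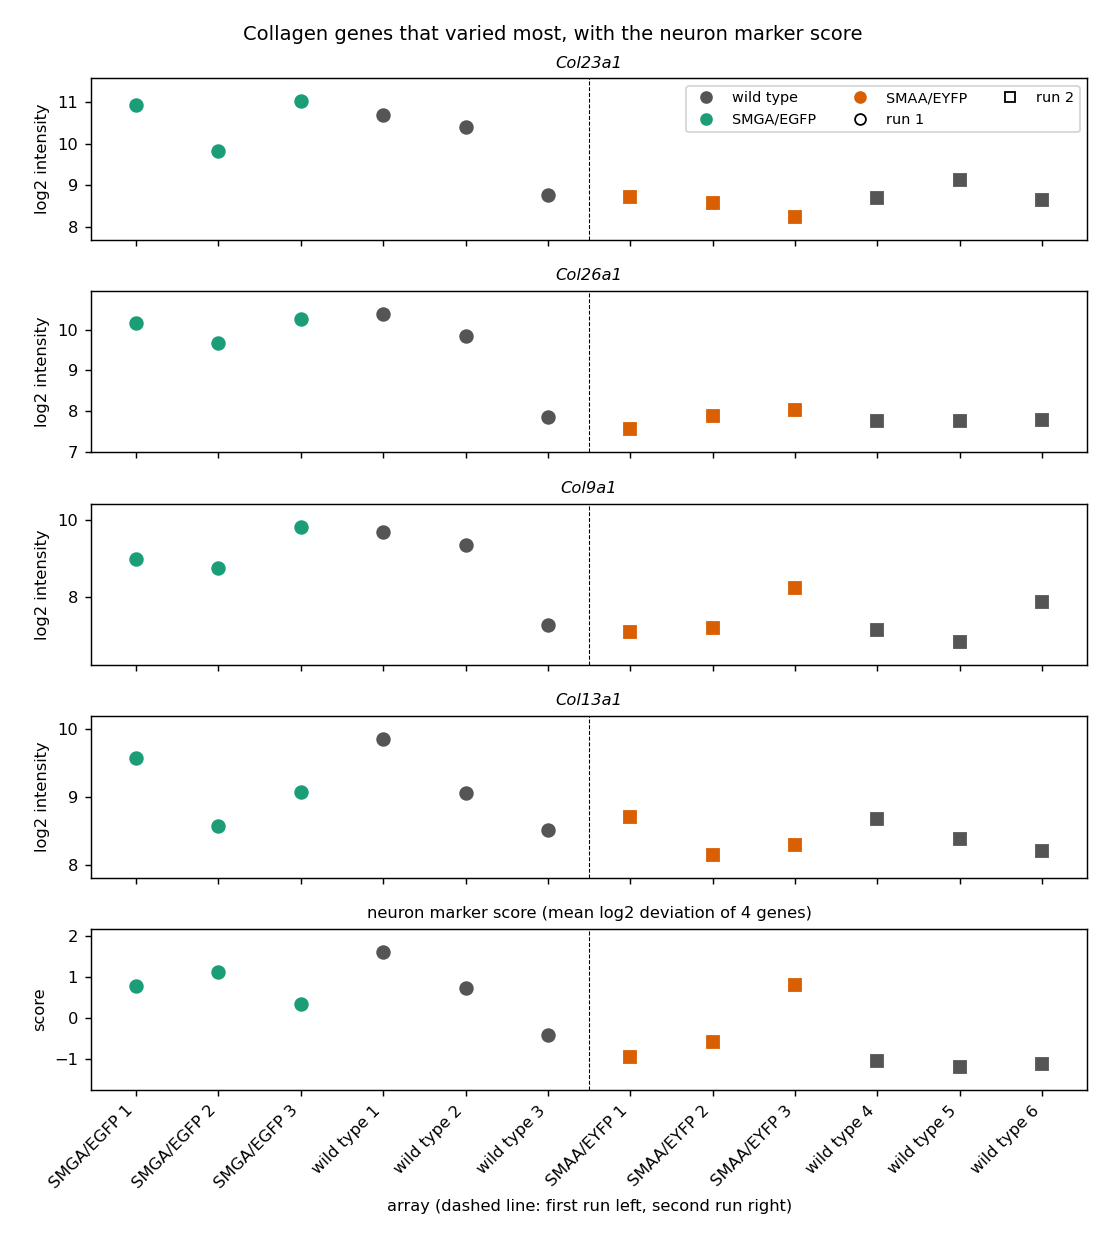
Normalized log2 intensity of Col23a1, Col26a1, Col9a1 and Col13a1 on each of 12 arrays, and in the lowest panel the neuron marker score, the mean log2 deviation of 4 genes from their means over the arrays. Arrays of the first run stand left of the dashed line; wild type 3 is at 7.86 for Col26a1, near the second run, while wild type 1 and 2 are at 10.38 and 9.84.

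With both reporters joined against wild type, 0 of 32 genes passed (limma), beside 0.00444% of all probe sets, and Col5a2 and Col5a1 had an unadjusted p below 0.05, or 6.25%, beside 4.18%. Their differences were -0.12 ± 0.05 and -0.16 ± 0.06 (adjusted p = 0.996 each, limma). Without wild type 4 they were -0.12 and -0.14. The members' median was -0.05 and no member was without overlap, where 0.151% of all probe sets were. Without wild type 4, 0 collagen genes passed in any of these comparisons, and the medians were 0.00 in SMGA/EGFP, -0.11 in SMAA/EYFP, 0.08 between the reporters and -0.03 for both.

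Members differed in how far their levels spread over the 12 arrays. The SD was 0.03 for Col3a1 and 0.06 for Col1a2, whose values were set by rank at the top of the scale, 0.08 for Col4a1 and 0.08 for Col6a1, and 1.04 for Col23a1, 1.10 for Col9a1 and 1.18 for Col26a1. Col4a1 and Col6a1 also spread more in the deposited values, at an SD of 0.12 and 0.14. The other tested probe set of Col4a1 had a normalized SD of 0.26. The median SD was 0.15 over the fibrillar genes, 0.30 over the basement membrane genes and 0.31 over the others, against 0.24 over all probe sets tested. Col7a1, Col18a1 and Col16a1 are given as genes of intermediate level. Col7a1, of the anchoring fibrils under epithelia, measured 9.98, 9.41 and 9.84 in SMGA/EGFP, 9.60, 9.40 and 9.58 in SMAA/EYFP and 9.13, 9.44 and 10.18 over wild type. Col18a1, the source of endostatin, measured 12.89, 12.82 and 12.96 in SMGA/EGFP, 12.67, 12.80 and 12.79 in SMAA/EYFP and 12.66, 12.84 and 12.89 over wild type. Its SMGA/EGFP arrays were all above its SMAA/EYFP arrays, by 0.13 on average, but not above wild type. Col16a1, a collagen at the edge of fibrils and basement membranes, measured 13.05, 12.40 and 12.72 in SMGA/EGFP, 12.70, 12.49 and 12.53 in SMAA/EYFP and 12.64, 12.78 and 12.95 over wild type, with 2 SMAA/EYFP arrays below the wild-type range.

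The members not described so far were Col4a5, Col8a1, Col8a2, Col14a1, Col15a1, Col17a1, Col19a1 and Col27a1. Their differences from wild type ran from -0.21 for Col19a1 to 0.40 for Col17a1 in SMGA/EGFP, and from -0.19 for Col4a5 to 0.21 for Col17a1 in SMAA/EYFP. Col17a1 also spread over wild type itself, from 9.04 to 10.91, and both reporter groups lay within that range. Col8a1, a short-chain collagen of vessel walls, had a median of 12.98 and a highest value of 13.27 in wild type, and Col19a1, which associates with basement membranes, 12.26 and 12.40. For both genes the reporter groups overlapped wild type.

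Chains of one molecule or fibril varied together in some pairs. The 20 pairs listed were taken from known partnerships, except Col1a1 with Col4a1, a pair across classes. Of these 20, 15 had both genes tested, and 4 passed a permutation test over the 12 arrays with 100000 resamples (two-sided, adjusted over the 15 pairs). Pearson's r was 0.89 for Col1a1 with Col5a1, 0.87 for Col6a1 with Col6a2, 0.84 for Col5a1 with Col5a2 and 0.83 for Col4a1 with Col4a2, each at an adjusted permutation p of 0.00375. Spearman's rho was 0.77, 0.86, 0.80 and 0.81 in the same order (permutation p = 0.00494, 0.000560, 0.00251 and 0.00200, adjusted p = 0.0185, 0.00840, 0.0125 and 0.0125). Within the first and second run of 6 arrays, r was 0.89 and 0.90 for Col1a1 with Col5a1, 0.86 and 0.85 for Col6a1 with Col6a2, 0.81 and 0.83 for Col5a1 with Col5a2, and 0.88 and 0.78 for Col4a1 with Col4a2. In the first run none of the 4 passed (exact permutation p = 0.0306, 0.0236, 0.0569 and 0.0681 in that order, adjusted over the 15 pairs 0.229, 0.229, 0.255 and 0.255). In the second run Col5a1 with Col5a2 alone of the 4 passed (exact permutation p = 0.0139, 0.0583, 0.00972 and 0.0458, adjusted 0.0521, 0.125, 0.0486 and 0.125). Without the 2 arrays farthest from the first gene's median, r was 0.88, 0.80, 0.76 and 0.80. Between 0.147% and 0.644% of all probe sets had an r with the first gene of the pair at least as high.

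Other pairs did not pass. The third type VI chain had r = 0.63 with Col6a1 and 0.57 with Col6a2 (adjusted permutation p = 0.0529 and 0.0830). Col4a5 with Col4a6, the divergent pair on the X chromosome, had r = 0.46 (adjusted permutation p = 0.216), Col8a1 with Col8a2 r = 0.42 (0.259), and Col15a1 with Col18a1 r = -0.10 (0.817). Col12a1 with Col14a1, a pair of fibril-associated collagens, had r = 0.65 (0.0558). Col1a1 with Col4a1, a pair across classes, had r = 0.59 (0.0830).

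Col1a1 with Col1a2, chains of one molecule, had r = 0.03 (adjusted permutation p = 0.933). Type III with its partners gave r = -0.24 for Col1a2 with Col3a1 (0.572), -0.16 for Col1a1 with Col3a1 (0.702) and -0.33 for Col3a1 with Col5a2 (0.412). These 4 pairs complete the 11 that did not pass. Their second-brightest probe sets were tried after the data were seen. With them r was 0.87 for Col1a1 with Col1a2, 0.64 for Col1a1 with Col3a1, 0.78 for Col1a2 with Col3a1 and 0.77 for Col3a1 with Col5a2 (permutation p = 0.000470, 0.0182, 0.00131 and 0.00259, adjusted over these 4 pairs 0.00188, 0.0182, 0.00262 and 0.00345). Only pairs that had not passed were re-read this way, and the adjustment does not cover that choice. On the deposited values of the brightest probe sets, r was 0.87 for Col1a2 with Col3a1, 0.39 for Col1a1 with Col1a2, 0.39 for Col1a1 with Col3a1 and 0.53 for Col3a1 with Col5a2. The permutation p adjusted over these 4 pairs was 0.000680, 0.216, 0.216 and 0.153 in that order. After normalization, the 2 brightest probe sets of Col1a2 had r = -0.37 with each other, and those of Col3a1 r = 0.23. The brightest probe sets of Col1a2 and Col3a1 are those at the top of the array's scale described above. Why r differed between probe sets of a gene was not tested.

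**Figure D4:**
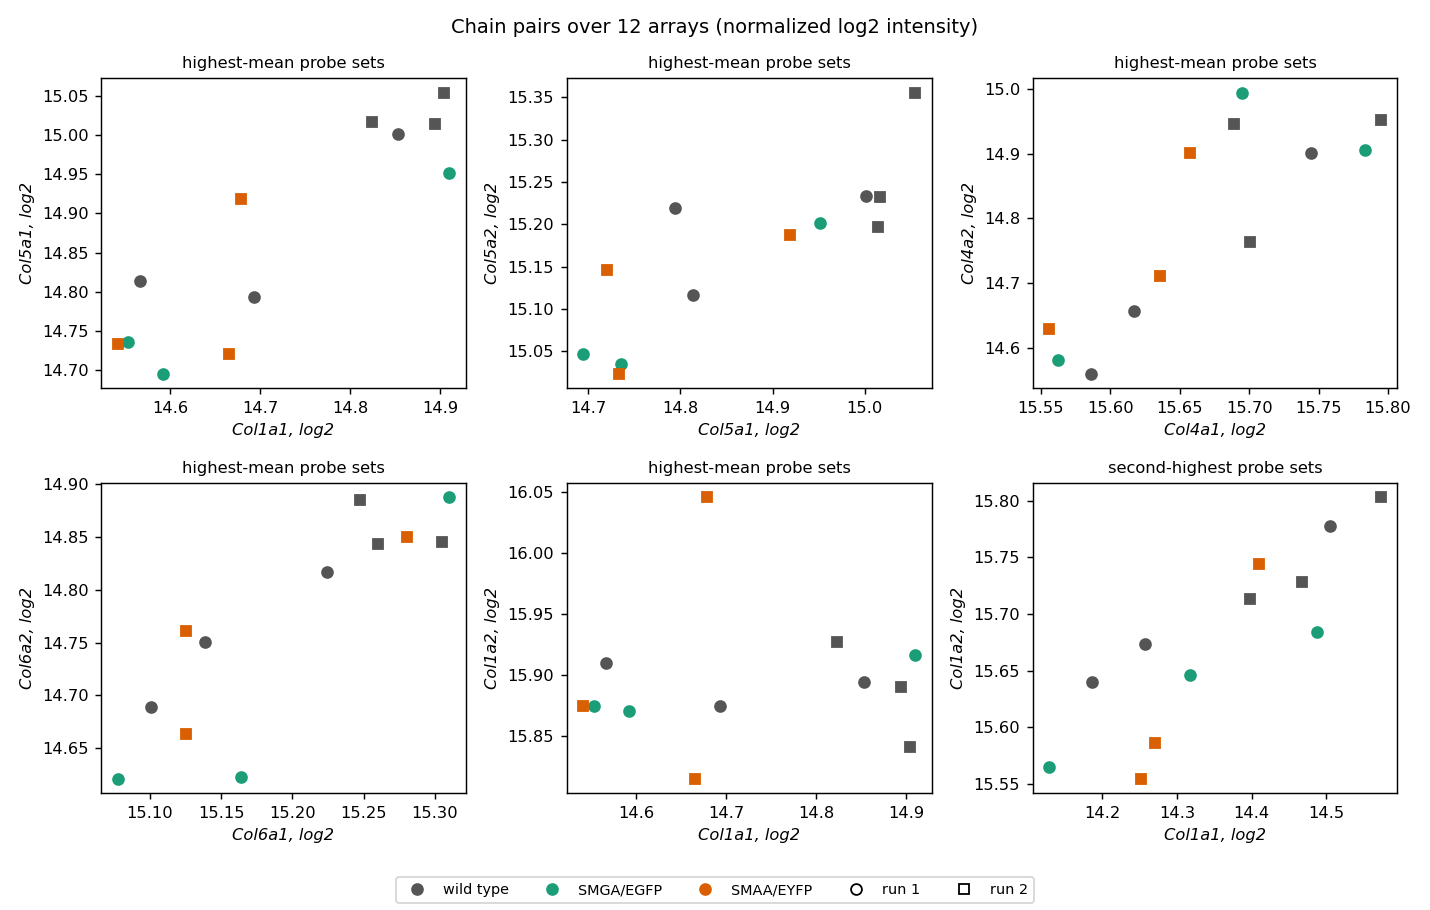
Normalized log2 intensity of paired collagen chains on 12 arrays, coloured by group, circles of the first and squares of the second run. The first 4 panels are the pairs that passed the permutation test, with r from 0.83 to 0.89, and the last 2 show Col1a1 with Col1a2 by their highest-mean probe sets (r = 0.03) and by their second-highest ones (r = 0.87). The second-highest ones were tried after the data were seen.

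The probe sets of a gene often moved together. For the 20 genes with several tested probe sets, all had the same sign of difference in 15 genes for SMGA/EGFP against wild type, 14 for SMAA/EYFP against wild type and 15 between the reporters. The 23 further tested probe sets correlated with the highest-mean one at a median r of 0.77, from -0.44 for Col27a1 to 0.98 for Col19a1, with 13 above 0.7 and 3 below 0. These correlations are within the same 12 arrays and share their processing.

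The proteins that make, cut, link and bind collagen were read from a list of 56 genes, 43 of them tested and 5 without a named probe set. None passed the adjusted threshold in any of the 4 comparisons of reporters and wild type (0 of 43, limma). Their median difference was -0.02 in SMGA/EGFP, -0.09 in SMAA/EYFP, with 13 of 43 above 0, and 0.02 between the reporters. In SMAA/EYFP 6 of 15 modifying enzymes and chaperones, 0 of 3 procollagen-processing genes and 2 of 4 crosslinking genes lay above 0. So did 2 of 8 fibril-binding proteoglycans, 1 of 6 receptors and 2 of 7 proteases and inhibitors, beside 50.8% of all probe sets. P3h1, a prolyl 3-hydroxylase of the collagen chains, was at 9.92 ± 0.07 (SD, n = 3) in SMAA/EYFP, 10.02 ± 0.06 in SMGA/EGFP and 10.21 ± 0.08 (SD, n = 6) in wild type. Neither reporter group overlapped wild type, and the differences were -0.29 ± 0.11 and -0.19 ± 0.10 (adjusted p = 0.991 and 0.746, limma). Of all probe sets 2.99% had no overlap in SMAA/EYFP, 2.72% in SMGA/EGFP and 0.151% with both joined. Plod3, a lysyl hydroxylase, was lowest in SMGA/EGFP, at -0.29 ± 0.12 from wild type (adjusted p = 0.712, limma). Mmp2, a gelatinase, was 0.50 ± 0.16 higher in SMGA/EGFP than in SMAA/EYFP (adjusted p = 0.405, limma).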

How the data were processed

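Linear intensity per probe set was deposited by the authors, made with GCOS per the submitters' processing notes; its version and algorithm are not given in the sources used here. Of 45101 probe sets, 64 were controls and not used, and 34945 of the others had 1 gene symbol, 932 several and 9160 none listed. Intensities were quantile normalized between arrays as log2(intensity + 16) and fitted over 12 arrays in 3 groups with limma 3.58.1 (R 4.3.3; lmFit, eBayes with an intensity trend), on the 22518 probe sets above the median mean, with a Benjamini-Hochberg threshold of 0.05. The fit and the permutation test were tested on simulated data. Per array, 8.35% to 10.6% of values lay below the pseudocount of 16, and the number of arrays limits the precision. The named genes were 10 core chains, genes past the threshold, and up to 8 collagen and 4 pathway genes of smallest p per comparison. Members, classes and lists were chosen with earlier results of these data known. Replicate numbers follow accession order, and p-values measure the spread between these samples, which may be technical. Alternatives were other scaling, pseudocounts, filters, eBayes settings, fits within runs or with run as a block, mean probe sets, and leaving out each array.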

Additional observations from a re-analysis of the deposited data

How the results depend on the processing

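The count of changed collagen genes stayed 0 in SMGA/EGFP, SMAA/EYFP and both reporters against wild type under every alternative run. Between the reporters it was 1 with only the arrays compared, and between the wild-type runs it was 0 to 4 on leaving out each array. Of 3024 alternative values of 128 member differences, 1 passed the threshold. Sign changed in some alternative for 64 of these differences, and for 0 of the 15 with an unadjusted p below 0.05. The median between the reporters was -0.056 with arrays centred on their median and -0.0015 to 0.16 on leaving out each array, the lowest without SMGA/EGFP 1 and the highest without SMGA/EGFP 2. The median in SMGA/EGFP was -0.023 to 0.080 on leaving out each array, the highest without SMGA/EGFP 2. The chain pairs past the threshold, 4, became 12 with arrays centred on their median and 9 without further normalization, both including the 4, and 4 to 6 on leaving out each array, all including the 4. Within the first run 0 passed and within the second 3, where 6 arrays allow no p below 0.00139; of those 3 only Col5a1 with Col5a2 was among the 4, and the others were Col12a1 with Col14a1 and Col1a1 with Col4a1. On the mean of all probe sets of a gene 6 passed, 3 of them among the 4, without Col5a1 with Col5a2. The cause was not tested. No paired analysis was possible because the labels give no replicate numbers shared between groups.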
